A study of Mus musculus with 6 samples.

Results

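Interferon response and antigen presentation genes were examined in RNA sequencing of mouse intestinal organoids, a culture of gut epithelium grown as small hollow structures. The members were 41 genes taken by symbol from a count table of 24786 genes: 11 signalling factors and sensors, 22 antiviral effectors and 8 genes of class I antigen presentation. All 41 were in the table, and 33 had enough counts to be tested. All organoids were wild type (the sources used here give no strain, sex or age) and had been broken into single cells over 10 min with TripLE, the submitters' name for the dissociation reagent. The tyramine group (3 libraries) then received 100 µM tyramine, an amine that gut bacteria make from tyrosine, for 16 h. The control group (3 libraries) is labelled DMSO in the sample titles and control medium in the design text, so whether the tyramine cultures also held DMSO is not given. No library received interferon, a virus or another agent, as far as the labels say. The labels do not say that replicates are different mice or cultures. The p-values therefore set the difference between groups against the spread among these libraries, and that spread may be technical.

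Interferons are secreted signals of infection. Interferons of types I and III activate the kinases JAK1 and TYK2 and through them a complex that holds STAT2 and IRF9 and binds a DNA motif called the interferon-stimulated response element (ISRE). Interferon gamma acts through another motif, the gamma-activated sequence (GAS). The genes they switch on block viral replication, sense viral RNA, feed back on the receptor and raise the display of peptides on class I molecules, which are a heavy chain (H2-K1, H2-D1) with the light chain beta-2 microglobulin. Gut epithelium carries these responses as a barrier tissue, and many of the genes are also transcribed at a low level without interferon.

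The libraries held 28316372 to 35035955 counts. Markers fixed for intestinal epithelium summed to 21800 to 23300 CPM in controls and 18700 to 21100 CPM with tyramine (CPM, counts per 1000000 of a library size scaled by a normalization factor). Within that list 5 of 12 fell (Vil1, Cdx2, Lgals4, Krt19 and Epcam) and 2 rose (Cdh1 and Krt18). The 19 immune cell markers summed to 7.61 to 10.1 CPM in controls and 8.24 to 9.57 CPM with tyramine. Of these, 8 were at 0 counts in all libraries, the pan-leukocyte marker Ptprc had 4 or 5 counts per library, and Itgam alone gave 4.35 to 6.94 CPM. The 13 mesenchymal markers summed to 20.8 to 22.1 and 16.5 to 19 CPM, and the 9 endothelial markers to 0.526 to 1.32 and 0.313 to 3.21 CPM. Among the 2 immune and 9 mesenchymal markers with enough counts, 0 rose and 0 fell with edgeR, with 0 also at an unadjusted p under 0.05 and 0 with DESeq2 or limma-voom. The part of the epithelial marker changes in the results below was not tested. In bulk RNA, fewer cells of a type and less RNA per cell cannot be told apart.

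Promoter sequence separates the members into those that carry a plain ISRE next to their start and those that do not. RefSeq windows (GRCm38.p6) of 250 bases before a transcription start were found for 28 of the 41 members. The ISRE was searched on both strands as GAAA, any 2 bases and GAAA, and stood in a window of 10 of these 28 genes (35.7%), against 936 of all 27025 genes with a window (3.46%). By role they stood in 8 of 14 effectors, 1 of 8 signalling genes (Stat2) and 1 of 6 class I genes (B2m). The GAS letters TTCNNNGAA stood in 5 of 28 members (17.9%), against 8.13% of all genes. The stretches below show the ISRE letters in capitals for 3 effectors and B2m, each read on the gene's own strand.
Isg15 (chr4:156200860-156200911, minus strand): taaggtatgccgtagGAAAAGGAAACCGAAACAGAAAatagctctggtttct
Ifit1 (chr19:34640770-34640828, plus strand): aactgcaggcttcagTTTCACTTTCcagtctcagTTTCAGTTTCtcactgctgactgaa
Ifit3 (chr19:34583358-34583431, plus strand): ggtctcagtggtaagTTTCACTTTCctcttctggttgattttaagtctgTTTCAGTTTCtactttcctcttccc
B2m (chr2:122147533-122147572, plus strand): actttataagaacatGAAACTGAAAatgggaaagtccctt
In Isg15 3 matches overlap in 1 run, and Ifit1 and Ifit3 have 2 separate matches each. A match describes letters, not a bound site.

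The heavy chain genes H2-K1 and H2-D1 shared another arrangement. Each had the palindrome GGGGATTCCCC, known as a binding motif of NF-kB, followed by AGTTTCACTTC, a variant of the response element that differs from the ISRE letters searched above. Both motifs were chosen after these 2 windows had been read. They are in capitals in the stretches below, on the gene's own strand.
H2-K1 (chr17:34000429-34000458, minus strand): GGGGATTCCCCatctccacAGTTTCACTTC
H2-D1 (chr17:35262923-35262952, plus strand): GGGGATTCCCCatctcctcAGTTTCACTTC
Over all 32851 windows, searched on both strands, the palindrome stood in 10 (0.0304%), the variant element in 14 (0.0426%) and both in 4, which belong to H2-K1, H2-D1 and H2-Q6. H2-Q6 missed the threshold (log2 fold change 0.998, edgeR adjusted p = 0.53). The heavy chain genes H2-T22, H2-Q4 and H2-T10 are not among those with both motifs, but whether they had a window is not given here. They rose by more than H2-K1 and H2-D1, and a part of the motifs in these changes was not tested. Of the 7 tested members with the plain ISRE letters, 0 rose and 0 fell, and of the 18 tested members whose windows lacked them, 3 rose and 5 fell. Over all tested genes 12.5% rose and 13.3% fell, so 0 calls among 7 genes do not show that these genes were unchanged. Of the 7, Isg15 and Rsad2 were high in tyramine replicate 3 alone, and Ifit3 was lower without overlap (edgeR adjusted p = 0.071). The falling members Usp18, Ifi27l2b, Parp9 and Parp14 had no window and are in neither count. These counts describe the members and were not tested against each other.

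Most of the members that changed were lower with tyramine, and the class I heavy chains were higher. Among the 33 tested members were 9 that fell and 3 that rose, and 21 missed the threshold (quasi-likelihood test of edgeR, p adjusted by Benjamini-Hochberg over 12139 genes and called under 0.05). Over all tested genes 13.3% fell and 12.5% rose (25.8% in all), so 27.3% of tested members fell and 9.09% rose. The median log2 fold change (tyramine minus control) was -0.42 over tested members and 0 over all tested genes. By role it was -0.40 in signalling, -0.90 in effectors and -0.36 in class I presentation. The shares of tested members that fell were 20%, 37.5% and 14.3% in the same order, and the shares that rose were 10%, 0% and 28.6%. In 16 tested members every tyramine library was below every control library, against 23.6% of all tested genes, and in 4 every tyramine library was above, against 20.9%. With control replicate 3 left out the falling members numbered 5, and with tyramine replicate 3 left out 11. Rising members numbered 2 or 3 with any library left out.

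**Figure D1:**
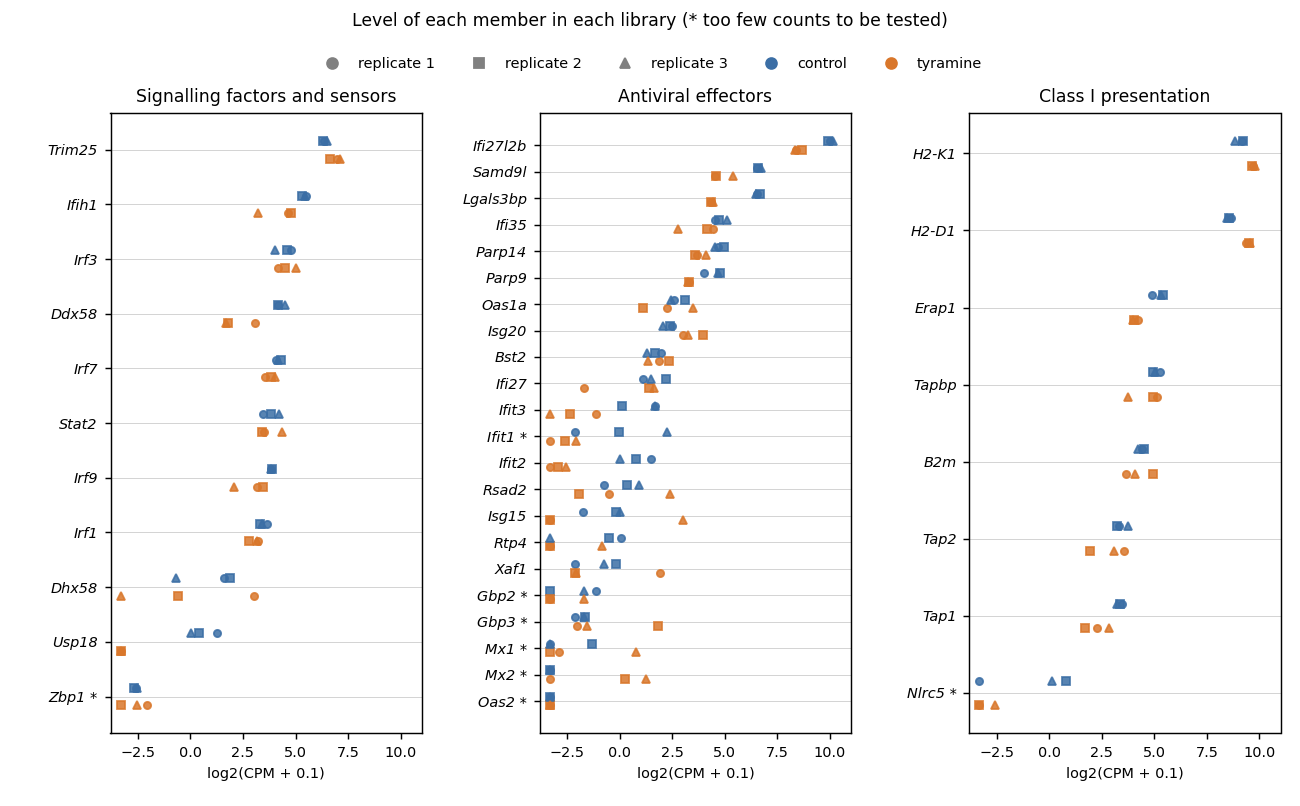
Level of each member in each library as log2(CPM + 0.1), in 3 panels by role and ordered by the control mean. Blue points are the 3 control and orange points the 3 tyramine libraries, shapes give the replicate, and an asterisk marks the 8 members with too few counts to be tested; Lgals3bp, Samd9l and Ifi27l2b separate to the left with tyramine and H2-K1 and H2-D1 to the right.

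Among signalling genes, the transcription factors did not pass the test in either direction. Of Stat2, Irf1, Irf3, Irf7 and Irf9, 0 rose and 0 fell with edgeR. At an unadjusted p under 0.05 the count was also 0, and it was 0 with DESeq2 and with limma-voom (1 lower at an unadjusted p with limma-voom). Irf9, the DNA-binding part of the complex it forms with STAT2, was at 14.3, 14.5 and 14.4 CPM in control replicates 1 to 3 and at 8.90, 10.9 and 4.14 CPM with tyramine. Its 3 tyramine values lay below all controls, but they spread widely (log2 fold change -0.85, 95% interval -1.76 to 0.06; edgeR adjusted p = 0.16). Irf7, which amplifies the type I response, was at 16.5, 20.1 and 17.9 CPM in controls and 11.4, 14.3 and 16.3 CPM with tyramine (edgeR adjusted p = 0.39). Irf1, a factor induced by interferon gamma whose window holds the GAS letters, was at 9.93 to 12.5 CPM in controls and 6.70 to 9.07 CPM with tyramine (95% interval of the log2 fold change -1.22 to 0.38). Stat2 and Irf3, the latter activated by phosphorylation after RNA sensing, overlapped between groups, with log2 fold changes of -0.05 (95% interval -0.86 to 0.76) and 0.12 (-0.56 to 0.80). These intervals leave room for changes of over 1.5-fold in each of the 5 genes.

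The feedback gene Usp18 fell to 0. Usp18 encodes a protease that removes ISG15 from proteins and blocks signalling at the type I receptor. Its control libraries held 70, 44 and 26 counts and every tyramine library 0. With 3 counts per library as the floor, Usp18 was at least 14.5-fold lower (edgeR adjusted p = 0.011). The bound was 10.4-fold without control replicate 1, where the call was lost (adjusted p range over all alternatives 0.00057 to 0.056). Small counts in the table are mostly even, and whether molecular identifiers were counted is not given. This bound, the bounds for other genes and the intervals below for counts cover counting error only and take each count as independent. If counts come in pairs, these bounds are too high and the intervals too narrow.

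Of the 4 tested genes of nucleic acid sensing, Ddx58 fell, Trim25 rose, and Ifih1 and Dhx58 missed the threshold. Ddx58 (chromosome 4, 40203773 to 40239828, minus strand) encodes RIG-I, a receptor for viral RNA ends. Its controls were at 18.0, 17.7 and 22.7 CPM and its tyramine libraries at 8.19, 3.37 and 3.10 CPM. The groups did not overlap, and Ddx58 fell 3.99-fold (edgeR adjusted p = 0.0085, with a log2 fold change of -1.99 and SE 0.44), with the call lost without control replicate 3. Without tyramine replicate 1 its log2 fold change was -2.59. Ifih1, which encodes MDA5, a sensor of long double-stranded RNA, was at 45.1, 39.6 and 43.1 CPM in controls and 24.8, 27.2 and 9.09 CPM with tyramine. All 3 tyramine values were lower, and the gene sat at the threshold (log2 fold change -1.07, SE 0.36; edgeR adjusted p = 0.053, and 0.013 to 0.16 over the alternatives, 9 of 15 of them past it). Trim25, a ubiquitin ligase that modifies RIG-I, rose 1.45-fold, from 80.4, 79.5 and 91.4 CPM to 127, 101 and 137 CPM (log2 fold change 0.54, SE 0.15; edgeR adjusted p = 0.022). Its call was lost when control replicate 1 or 2, or tyramine replicate 1, was left out. Dhx58, the LGP2 gene, had 90, 132 and 15 counts in the control group and 224, 18 and 0 with tyramine, so its libraries disagreed in both groups. Zbp1, a sensor of Z-form nucleic acids, had 0 to 4 counts in every library and was not tested.

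Among the antiviral effectors 6 fell and 0 rose, 10 missed the threshold, and 6 more had too few counts to be tested. Of the 16 tested, 37.5% fell, against 13.3% of all tested genes, and 0% rose, against 12.5%. The 0 that rose with edgeR compare with 1 at an unadjusted p under 0.05, 1 with DESeq2 (Isg20) and 0 with limma-voom. The most abundant was Ifi27l2b (chromosome 12, 103450898 to 103457223, minus strand), a member of the Ifi27 gene family. It stood at 1014, 954 and 1146 CPM in controls and 338, 401 and 318 CPM with tyramine, without overlap. The drop was 2.95-fold (edgeR adjusted p = 1e-05, log2 fold change -1.56 with SE 0.11). Lgals3bp (chromosome 11, 118392751 to 118402092, minus strand), a secreted glycoprotein that binds galectins, was at 91.3, 101 and 89.6 CPM in controls and at 20.05, 20.04 and 21.23 CPM with tyramine. The replicates of each group lay close together, and Lgals3bp fell 4.59-fold (edgeR adjusted p = 8.1e-06, log2 fold change -2.20 with SE 0.15). Samd9l (chromosome 6, 3372257 to 3399572, minus strand), a translation inhibitor that limits poxviruses, fell 3.29-fold, from 91.7, 95.7 and 104 CPM to 23.2, 23.5 and 42.0 CPM. Tyramine replicate 3 was the highest of its group for Samd9l but still under every control (edgeR adjusted p = 0.00063). These 3 genes kept their calls under all 15 alternatives.

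Parp9 and Parp14 are neighbouring genes of ADP-ribosyltransferases on chromosome 16 (35938470 to 35972605, plus strand, and 35832874 to 35871544, minus strand). Parp9 fell 2.36-fold, from 16.0, 26.8 and 25.0 CPM to 9.71, 9.56 and 9.50 CPM (edgeR adjusted p = 0.013). Parp14 fell 1.93-fold, from 25.2, 31.3 and 22.98 CPM to 12.5, 11.8 and 16.9 CPM (edgeR adjusted p = 0.027). Neither pair of groups overlapped, but the Parp9 call was lost when control replicate 2 or 3 was left out, and that of Parp14 without any 1 control or tyramine replicate 1 or 2. Dtx3l, which encodes the ubiquitin ligase partner of PARP9, is described with the other interferon-stimulated genes below.

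The 3 IFIT genes, whose proteins bind foreign RNA, sit together on chromosome 19 and were low in all libraries. Ifit2 had 83, 59 and 26 counts in the control group and 0, 1 and 2 with tyramine, a pooled ratio of 52.2 (95% counting interval 17.6 to 256), and fell (edgeR adjusted p = 0.019; 0.0019 to 0.089 over the alternatives, with the call lost without any 1 control or without tyramine replicate 2). Ifit3 had 95, 35 and 88 counts in the control group and 10, 3 and 0 with tyramine. Its groups did not overlap, but it was not past the threshold (edgeR adjusted p = 0.071, and 0.014 with DESeq2). Ifit1 had 4, 32 and 134 counts in the control group and 0, 2 and 4 with tyramine. Control replicate 1 was as low as tyramine replicate 3, and Ifit1 did not pass the filter for low counts. These genes have close copies in the mouse genome, and how reads were shared between copies is not given.

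Isg20, an exonuclease gene, was the effector with all tyramine libraries above all controls. Its values were 5.50, 5.16 and 4.04 CPM in controls and 8.05, 15.4 and 9.43 CPM with tyramine (log2 fold change 1.16, 95% interval 0.19 to 2.13; edgeR adjusted p = 0.078, and 0.049 with DESeq2). Ifi35 and Ifi27 were lower on average without passing the test. Ifi35 ranged from 22.98 to 34.0 CPM in controls and from 6.79 to 21.2 CPM with tyramine (95% interval of the log2 fold change -1.73 to 0.02). Bst2, the gene of the tether that holds budding viruses, differed little in mean, with 2.39 to 3.85 CPM in controls and 2.47 to 5.001 CPM with tyramine (95% interval -1.27 to 1.76).

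**Figure D2:**
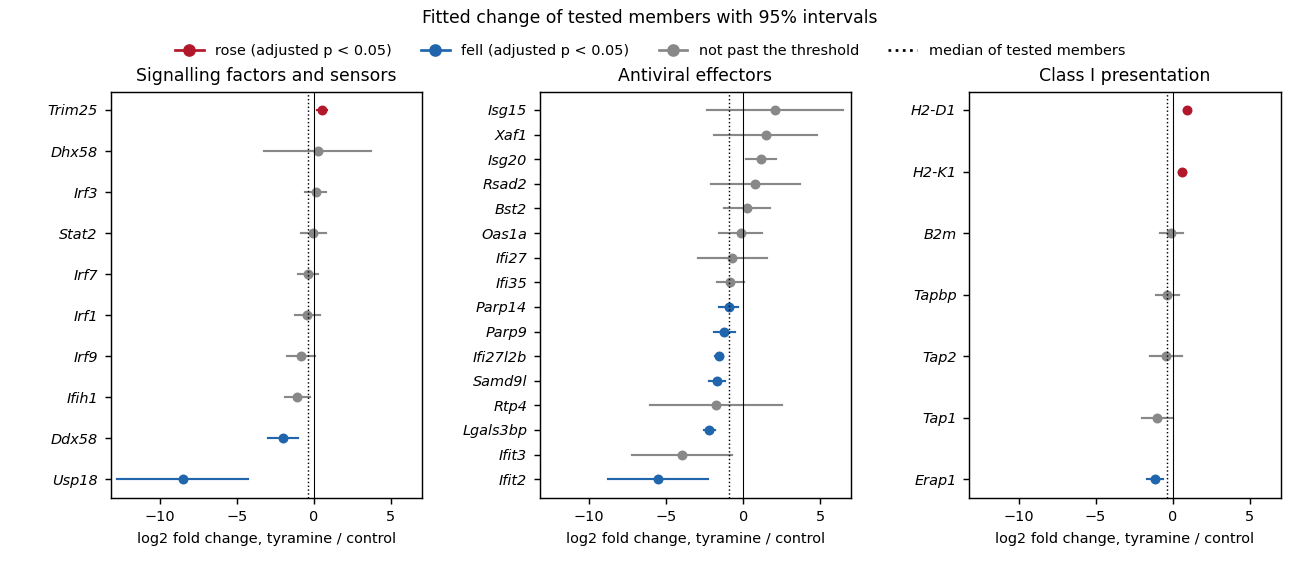
Fitted log2 fold change of the 33 tested members, tyramine over control, with 95% intervals, in 3 panels by role. Red marks members that rose, blue those that fell and grey those not past an adjusted p of 0.05; the dotted lines are the medians of -0.40, -0.90 and -0.36, and the fitted value of Usp18 rests on a group at 0 counts and is no bound.

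Several classical interferon-stimulated members were set by 1 library. Isg15, a ubiquitin-like modifier, had 6, 28 and 26 counts in the control group and 0, 0 and 226 with tyramine, so tyramine replicate 3 alone lay above the controls and the other 2 lay below them. Rsad2, which encodes the antiviral enzyme viperin, had 15, 42 and 51 counts in the control group and 17, 5 and 149 with tyramine. Mx1, a dynamin-like GTPase, had 11 counts in control replicate 2 and 46 in tyramine replicate 3, with 0 or 1 elsewhere. Tyramine replicate 3 was also the highest library for Oas1a, which makes the activator of RNase L, at 10.9 CPM against 5.37 to 8.36 CPM in controls and 2.05 and 4.66 CPM in the other tyramine libraries. The same library was the lowest of its group for Irf9, Ifih1, Ifi35 and Tapbp. Without it, the log2 fold change of Isg15 went from 2.06 to -7.29 and that of Rsad2 from 0.79 to -1.59, neither past the threshold. The fitted -7.29 rests on tyramine libraries at 0 counts and does not measure the size of a drop. None of Isg15, Rsad2 and Oas1a was called in any alternative. Tyramine replicate 3 also differed from its group over the genes with enough counts, by chi-square per degree of freedom, which sets disagreement against counting error. The value was 99.4 against tyramine replicate 1 and 94.4 against tyramine replicate 2. It was 53.3 between tyramine replicates 1 and 2, and 26.8 to 35 between controls.

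Other members were high in a different library. Gbp3, an interferon-gamma-induced GTPase, had 108 counts in tyramine replicate 2 and 4 to 8 in every other library. Xaf1, an apoptosis factor, had 104 counts in tyramine replicate 1 and 4 to 29 elsewhere. Mx2, annotated as a polymorphic pseudogene in GENCODE M21, had 0 counts in all controls and in tyramine replicate 1, then 34 and 65 in tyramine replicates 2 and 3. That is at least 11.6-fold higher by group mean (at least 5.60-fold without tyramine replicate 3), and Mx2 passed the test only without tyramine replicate 1. Gbp2 had at most 11 counts, and Oas2 had 0 in all 6 libraries. Rtp4 had 29, 22 and 0 counts in the control group and 0, 0 and 13 with tyramine. Counts of this kind in 1 library were also seen in markers of other cell types, with 41 counts of the T cell gene Cd3e and 62 of the endothelial gene Tek in tyramine replicate 1, and 74 of Tie1 in tyramine replicate 2.

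**Figure D3:**
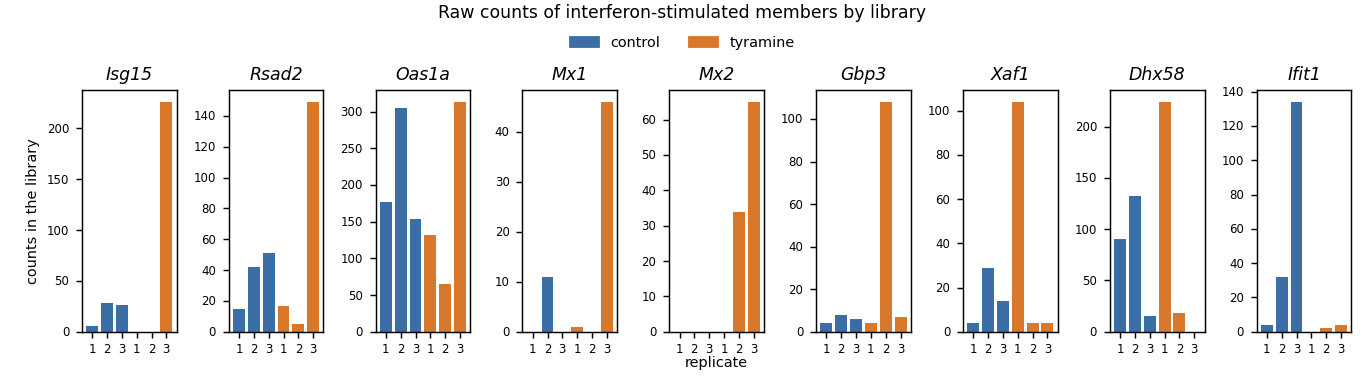
Raw counts in each library for 9 members whose replicates disagreed, with control in blue and tyramine in orange and a separate count axis for each gene. Isg15, Rsad2, Mx1 and Mx2 peak in tyramine replicate 3, Gbp3 in tyramine replicate 2, Xaf1 and Dhx58 in tyramine replicate 1 and Ifit1 in control replicate 3.

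In class I presentation the heavy chains rose while no other member did. H2-D1 (chromosome 17, 35262730 to 35267499, plus strand) rose 1.92-fold, from 395, 369 and 353 CPM to 663, 725 and 761 CPM (log2 fold change 0.94, SE 0.09; edgeR adjusted p = 7e-05). H2-K1 (chromosome 17, 33996017 to 34000347, minus strand) rose 1.55-fold, from 577, 590 and 463 CPM to 834, 794 and 889 CPM (log2 fold change 0.63, SE 0.11; edgeR adjusted p = 0.0022). In both genes all tyramine libraries were above all controls, and both kept the call under all 15 alternatives. B2m, the light chain, was at 21.5, 22.98 and 18.5 CPM in controls and 12.5, 30.2 and 16.9 CPM with tyramine (log2 fold change -0.08, 95% interval -0.83 to 0.68; edgeR adjusted p = 0.9). Its tyramine libraries lay on both sides of the controls. Per kilobase of exon (GENCODE M21), B2m was at 24.4 ± 2.68 CPM in controls, against 185 ± 23.7 CPM for H2-K1 and 144 ± 8.32 CPM for H2-D1 (SD, n = 3). B2m has only 0.86 kb of exon, and whether short transcripts were captured as well as long ones was not tested. Heavy chain genes are also near-identical in places, so these values do not give the ratio of light to heavy chain RNA.

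The members on the peptide side of the pathway were lower or not past the threshold. Erap1, the aminopeptidase that trims peptides in the endoplasmic reticulum, fell 2.23-fold, from 29.6, 42.9 and 40.3 CPM to 18.8, 16.2 and 15.6 CPM (log2 fold change -1.16, SE 0.23; edgeR adjusted p = 0.0053), under all 15 alternatives. Tap1, a subunit of the peptide transporter, was at 10.8, 10.1 and 9.12 CPM in controls and 4.73, 3.15 and 7.03 CPM with tyramine. No library overlapped between the groups, yet Tap1 was past the threshold only without tyramine replicate 3 (edgeR adjusted p = 0.13 with all libraries). Tap2, the other transporter subunit, and Tapbp, the tapasin gene that bridges transporter and heavy chain, overlapped between groups (95% intervals of the log2 fold change -1.47 to 0.62 and -1.09 to 0.38). Nlrc5, the transactivator of class I genes, had 0, 60 and 28 counts in the control group and 0, 0 and 2 with tyramine, a pooled ratio of 41 (95% counting interval 11 to 344), and was not tested. Control replicate 1 held no Nlrc5 count either.

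A list of 29 other genes of the class I route had 27 tested, of which 7 rose and 7 fell (25.9% each, median log2 fold change -0.05). Over all tested genes 12.5% rose and 13.3% fell. Of the 7 that rose 6 are heavy chains, and the other is Lnpep, an aminopeptidase that trims peptides, which rose 2.22-fold (edgeR adjusted p = 0.029). Together with H2-K1 and H2-D1, 14 class I heavy chain genes were tested, and 8 of them rose, 2 fell and 4 missed the threshold. H2-T22 rose 3.05-fold, from 33.2, 27.2 and 33.8 CPM to 100.4, 88.4 and 97.9 CPM (edgeR adjusted p = 7.1e-05). H2-Q4 rose 4.75-fold, from 6.19, 14.0 and 10.3 CPM to 44.0, 48.9 and 52.2 CPM, and H2-T10 rose 23.5-fold, from 0.659, 1.04 and 0.632 CPM to 22.4, 6.35 and 26.5 CPM. H2-T3, the thymus leukaemia antigen gene of gut epithelium, went the other way and fell 14.0-fold, from 58.8, 51.2 and 61.8 CPM to 7.91, 2.08 and 2.33 CPM (edgeR adjusted p = 4e-04). Without tyramine replicate 1 its log2 fold change was -4.69, a larger drop. The other heavy chain genes past the threshold were H2-Q1, H2-Q2 and H2-T24, which rose, and H2-T23, which fell. Heavy chain genes are near-identical in places, which leaves the level of each copy uncertain, and counts were therefore also summed. Over 30 heavy chain rows the sum was 1363, 1347 and 1189 CPM in controls and 2134, 2111 and 2358 CPM with tyramine. With any 1 library left out, 7 or 8 heavy chain genes rose and 1 or 2 fell.

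Of 5 genes of the immunoproteasome, which cuts peptides for class I, and its activator, 3 fell and 2 missed the threshold. Over all tested genes 13.3% fell. Psmb9 had 134, 115 and 87 counts in the control group and 0 in every tyramine library (edgeR adjusted p = 0.0032). With the same floor as for Usp18 it was at least 34.8-fold lower, if each count is independent. Psmb10 fell 2.46-fold (edgeR adjusted p = 0.023) and Psme1, a proteasome activator subunit, 1.98-fold (edgeR adjusted p = 0.0019). Psmb8 had 154, 102 and 110 counts in the control group and 40, 0 and 11 with tyramine but was not past the threshold (edgeR adjusted p = 0.18). Psme2, the other activator subunit, overlapped between groups, at 18.9 to 28.1 CPM in controls and 18.8 to 20.3 CPM with tyramine (edgeR adjusted p = 0.55). These genes, Lnpep, and the heavy chains other than H2-K1, H2-D1, H2-T22, H2-T3, H2-Q4 and H2-T10, were picked for mention with their values known.

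**Figure D4:**
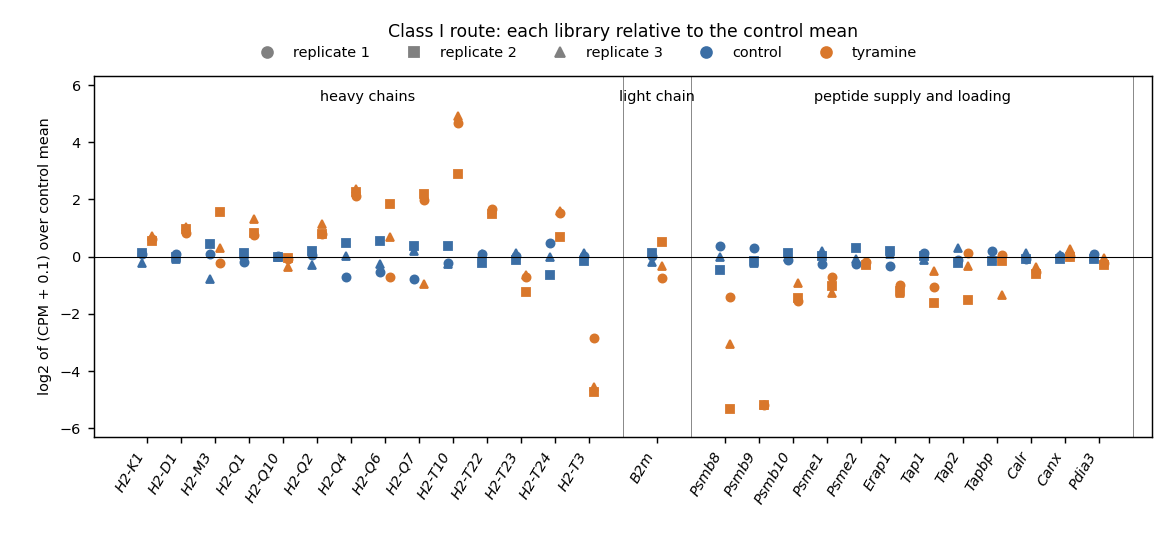
Each library's level relative to the control mean, as log2 of (CPM + 0.1), for the 14 tested heavy chain genes, B2m and 12 genes of peptide supply and loading. Blue points are control and orange points tyramine libraries. Of the heavy chain genes 8 rose, and B2m lies on both sides of 0. Among genes of peptide supply and loading, Psmb9, Psmb10, Psme1, Erap1 and Calr fell and lie below 0 in every tyramine library. Psmb8, Psme2, Tap1 and Pdia3 also lie below 0 in every tyramine library but were not past the threshold.

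Upstream of the members, the interferon genes of the list were at or near 0 counts. Ifnb1, Ifnk, Ifnl2, Ifnl3 and Ifng had 0 counts in all 6 libraries and Ifne had 1 count in 1 library. With libraries of this size and each count taken as independent, 0 counts allow up to 3 counts, or 0.0823 to 0.106 CPM per library. Ifnlr1, the receptor chain of type III interferon, was at 8.28 to 13.5 CPM in controls and 5.08 to 17.5 CPM with tyramine (edgeR adjusted p = 0.94). Il10rb, its partner chain, was at 52.1, 46.6 and 53.3 CPM in controls and 32.7, 39.9 and 18.9 CPM with tyramine, lower without overlap, and called with DESeq2 and limma-voom but not with edgeR (edgeR adjusted p = 0.068). Ifnar2, a chain of the type I receptor, was at 18.5, 14.6 and 16.4 CPM in controls and 8.40, 3.43 and 11.9 CPM with tyramine, also without overlap and called with limma-voom but not with DESeq2 (edgeR adjusted p = 0.11). In the list of ligands, receptors, kinases and regulators, 18 of 25 genes were tested and 12 were past the threshold in neither direction (median log2 fold change -0.17). Of the 18, 2 fell (11.1%, against 13.3% of all tested genes) and 4 rose (22.2%, against 12.5%). Jak2 fell 1.57-fold, a call lost without control replicate 2, and Jak1 rose 1.30-fold, a call lost without any 1 control or tyramine replicate 1. Socs3, a feedback inhibitor of cytokine receptors, rose 3.88-fold, from 3.21 to 7.54 CPM to 10.1 to 35.1 CPM. The Socs3 call was lost without control replicate 1 or 2 or tyramine replicate 3, and without the last its log2 fold change went from 1.96 to 1.25. Ptpn2 also rose. The count of 4 that rose became 0 without control replicate 1 or 2, and 1 without control replicate 3 or tyramine replicate 3, 2 without tyramine replicate 1, and 1 with scaling to library totals alone.

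Of 17 tested sensing adaptors and kinases of 19 listed, 2 fell (11.8%, against 13.3% of all tested genes) and 1 rose, with a median log2 fold change of 0.10. Samhd1, a deoxynucleotide phosphohydrolase that restricts viruses, fell 3.41-fold (edgeR adjusted p = 0.0078), Ikbke, an IRF kinase, fell 2.5-fold and Tank rose 1.44-fold. The calls of Ikbke and Tank were lost without any 1 control library or tyramine replicate 2, and that of Tank also without tyramine replicate 3. The STING gene Tmem173 had 2 counts in all. Of 53 further interferon-stimulated genes 29 were tested, and 5 fell (17.2%) and 0 rose with edgeR, with a median log2 fold change of -0.57. The 0 compares with 0 at an unadjusted p under 0.05 and 0 with DESeq2 and limma-voom, and 12.5% of all tested genes rose. Epsti1 fell 3.59-fold, from 129, 149.7 and 166 CPM to 48.1, 31.7 and 44.0 CPM (edgeR adjusted p = 6.9e-05), and Herc3 fell 3.12-fold. Dtx3l, the partner of Parp9, fell 2.11-fold from 23.8, 22.6 and 23.2 CPM to 10.9, 9.19 and 12.95 CPM, and Lgals9 and Rbck1 also fell. Without any 1 control library 2 of these 5 calls were left. Of 13 class II presentation genes 6 were tested and 1 fell (16.7%). It was Lgmn, a lysosomal protease gene, which fell 1.74-fold (a call lost without any 1 control or tyramine replicate 1 or 2). In this list 0 rose with edgeR, DESeq2 or limma-voom and at an unadjusted p under 0.05. The class II transactivator Ciita had 2 counts in all, in tyramine replicate 3.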

How the data were processed

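RNA from 6 libraries was sequenced after a stranded mRNA kit with molecular identifiers of random bases, per the labels' protocols. Per the submitters' processing notes the tools were STAR 2.5.3a and the build mm10. The sources used here do not name the counter, annotation, strand setting or use of the identifiers. Raw counts for each symbol make up the deposited file, per the file headers, and values of 1 to 8 counts were even in 72.6% to 78.7% of cases. Columns match the sample titles.

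The filter was filterByExpr at its defaults (10 counts, 15 in total). Counts were scaled by TMM factors of 0.962 to 1.04 and tested by quasi-likelihood in edgeR 4.0.16 under R 4.3.3 (robust, group as the only term), with Benjamini-Hochberg adjustment over 12139 genes. The SE is the log2 fold change over the root of its F statistic, and 95% intervals use the t distribution with the fit's degrees of freedom. CPM without a ± sign are single libraries. Alternatives were other scalings, filters, DESeq2 1.42.0, limma-voom (limma 3.58.1), robust estimation off, a replicate block, halved counts and each library left out; for the pathway lists these were added after the data were seen. Counts were simulated for 12139 genes with tyramine against control, with 50 genes each changed 1.5-, 2-, 4- and 8-fold. Of these, 6%, 36%, 60% and 76% were recovered in that order, with 5 false calls. The changed genes were a far smaller share than the 25.8% called in the data. The simulated spread followed the trend over expression level, not each gene's own spread. These shares therefore do not measure how many real changes were found here.

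Members and lists were chosen with earlier results of these data known. All 41 members are named by rule, and from each pathway list up to 4 called genes with the smallest p; any other gene was picked for mention with its values known. Some list genes that were counted are not reported here by name. Positions and exon lengths are from GENCODE M21 (GRCm38).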

Additional observations from a re-analysis of the deposited data

How the results depend on the processing

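Across 15 alternatives, of the 12 called members 6 kept their call in every one (Ifi27l2b, Samd9l, Lgals3bp, H2-K1, H2-D1 and Erap1) and 0 changed direction. Of the 21 members that were not past the threshold, 4 passed it in some alternative (Ifih1, Ifit3, Isg20 and Tap1). With DESeq2 1 effector rose. In the ligand, receptor and kinase list 1 gene rose with library totals alone or the replicate block, and 4 fell with library totals alone, DESeq2 or limma-voom. In the sensing list 0 rose with library totals alone, no filter or the replicate block, and in the class II list 0 fell with the block. Without 1 library at a time, members that fell numbered 5 to 11 and members that rose 2 to 3. Signalling members that rose then numbered 0 to 1 and fell 1 to 3, effectors that rose 0 to 1 and fell 3 to 6, and class I members that fell 1 to 2. In the same runs the ligand list had 0 to 3 rising and 1 to 4 falling, the sensing list 0 to 1 rising and 1 to 3 falling, the other interferon-stimulated genes 2 to 7 falling, the other class I genes 5 to 7 rising and 4 to 7 falling and the class II list 0 to 1 rising and 0 to 1 falling. Over all genes 934 to 1510 rose and 1035 to 1797 fell. The causes were not tested.

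Reversals of direction were limited to 9 members that were not past the threshold. With limma-voom, Dhx58 went to -2.16, Isg15 to -2.11 and Rsad2 to -0.37 (log2 fold change). With the replicate block Dhx58 went to -1.98, Isg15 to -2.62, Rsad2 to -0.20 and Xaf1 to -0.53. Leaving out 1 library at a time gave log2 fold changes from -0.41 to 0.15 for Stat2, -0.14 to 0.30 for Irf3, -3.04 to 0.83 for Dhx58 and -7.29 to 2.65 for Isg15 (the -7.29 rests on tyramine libraries at 0 counts). The ranges were -0.96 to 0.26 for Oas1a, -1.59 to 1.34 for Rsad2, -0.04 to 0.47 for Bst2, -1.81 to 2.06 for Xaf1 and -0.51 to 0.17 for B2m. No pairing of the libraries by replicate number was detected: deviations from the group means correlated at -0.02, -0.01 and 0.01 for equal numbers. That does not show that the libraries were unpaired, and the labels do not say what equal numbers share. With the block 7 members fell and 3 rose. Usp18, Ifit2 and Parp14 lost their calls under it and Ifih1 gained one. The 8 members that did not pass the filter on low counts have no test. With the block 1204 genes rose and 1390 fell over the whole table.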
